A study of Mus musculus with 4 samples.

Results

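The EGF family genes examined here were 10 in number, chosen by gene symbol among the 24346 symbols of each library, and all 10 were found. They were the 6 ligands of the EGF receptor Areg, Ereg, Hbegf, Tgfa, Btc and Epgn, the 3 receptors Egfr, Erbb2 and Erbb3, and the feedback inhibitor Errfi1. Polyadenylated RNA was sequenced from hair follicle stem cells (HFSCs) grown for 10 passages (10p-HFSCs, n = 2 libraries) and for 48 passages (48p-HFSCs, n = 2 libraries), to ask how long-term culture altered gene expression. All cells came from dorsal skin of 4-week-old C3H/HeN mice, were sorted for CD49f and CD34, and were passaged weekly in CnT-PR (M-CnT), a commercial serum-free medium. The full composition of M-CnT is not disclosed. The paper cites the manufacturer's manual for FGF proteins in it, and whether it holds EGF is not given in the sources used here. Neither the labels nor the methods say whether the 2 libraries of a group came from separate cultures, so p-values measure only the spread between these libraries, which may be technical.

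EGF family ligands are made as membrane-anchored precursors and are released by metalloproteases such as ADAM17. A released ligand binds EGFR, which pairs with a second EGFR or with ERBB2, a receptor that binds no ligand itself, or with ERBB3, a receptor for neuregulins whose own kinase is weak. The paired receptors signal through RAS and ERK and through PI3K and AKT, and cultured keratinocytes are known to feed this receptor with amphiregulin, epiregulin, HB-EGF and TGF-alpha of their own making. ERRFI1, also called MIG6, is induced by the signal and binds the EGFR kinase to damp it.

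Upstream sequence is shown for 3 members, Areg as the most abundant ligand, Btc as a ligand that fell, and Errfi1 as the inhibitor, because each places the member at an annotated start site. RefSeq windows on GRCm38.p6, each with 250 bases before and 50 bases after a start, were used for 7 of the 10 members. Among these, Errfi1 had windows at 2 starts. The sequences below are the 250 bases before the start, in the direction of the gene, of Areg (chr5:91139349-91139598, plus strand), Btc (chr5:91402995-91403244, minus strand) and the downstream start of Errfi1 (chr4:150854820-150855069, plus strand). Capitals mark the cAMP response element TGACGTCA and the TATA box TATAAA.
Areg: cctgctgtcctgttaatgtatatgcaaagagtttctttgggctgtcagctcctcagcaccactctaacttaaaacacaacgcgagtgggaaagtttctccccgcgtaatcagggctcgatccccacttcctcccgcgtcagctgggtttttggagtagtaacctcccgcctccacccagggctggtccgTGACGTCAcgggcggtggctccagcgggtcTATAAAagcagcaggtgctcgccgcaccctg
Btc: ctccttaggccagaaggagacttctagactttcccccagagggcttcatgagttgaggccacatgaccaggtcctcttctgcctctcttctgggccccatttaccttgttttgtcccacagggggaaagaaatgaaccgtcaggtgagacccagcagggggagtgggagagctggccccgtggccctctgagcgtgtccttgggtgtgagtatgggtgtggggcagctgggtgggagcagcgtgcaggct
Errfi1: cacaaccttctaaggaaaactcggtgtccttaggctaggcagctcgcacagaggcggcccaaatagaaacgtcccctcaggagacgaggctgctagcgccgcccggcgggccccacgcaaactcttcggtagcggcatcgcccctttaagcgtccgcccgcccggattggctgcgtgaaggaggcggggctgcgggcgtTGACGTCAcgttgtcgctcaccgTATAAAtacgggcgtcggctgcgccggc
Both strands of the whole 300-base windows were searched for 4 motifs, which were those marked above, the AP-1 site (letters TGACTCA) and the GC box (letters GGGCGG). No base lay in matches of 2 motifs. In the Areg window TGACGTCA began 61 bases and TATAAA 31 bases before the start. At the downstream Errfi1 start they began 51 and 28 bases before it, whereas the window at the other Errfi1 start held none of the 4 motifs. Among all 32851 windows, TGACGTCA was in 1.79%, TATAAA in 13.62%, the AP-1 site in 5.2% and the GC box in 35.66%, and TGACGTCA together with TATAAA was in 0.17%. The Btc window held none of the 4 motifs. The AP-1 letters were in no window of the 7 members searched, which did not include Ereg, Hbegf or Erbb3. These matches are a description of letters and were not tested against the expression values.

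Expression was read as FPKM, the fragments assigned to a gene scaled to the length of its transcript and to the fragments mapped in its library, as the authors deposited it. FPKM is scaled to length, so levels of different genes can be set side by side within a library, apart from a trend of replicate differences with length given below. Summed FPKM was unequal between libraries, from 581516 to 1414953, so comparisons between libraries depend on the scaling chosen. Differences are those of log2(FPKM + 1) in 48p- minus 10p-HFSCs, a scale that understates the change of low genes. A gene was called changed at a limma p-value, adjusted over the 11018 genes that reached 1 FPKM in 2 or more libraries, under 0.05 together with a difference of at least 1. Of these genes 10.8% were called higher and 9.15% lower, in all 19.9%, and for 65.9% the libraries of the 2 groups did not overlap. When each library was rescaled to the same summed FPKM (TPM), 623 rather than 1189 genes were called higher and 812 rather than 1008 lower. The median difference of all genes was then -0.56 rather than -0.03. Median-of-ratios scaling gave 1198 genes called higher and 1006 lower, with a median difference of -0.03. An exact permutation test of 2 against 2 libraries cannot give a two-sided p under 0.333. Relative depth, read from the most common ratio of low FPKM values, was lowest in replicate 2 of 48p-HFSCs, at 46.7% of replicate 1 of 10p-HFSCs, and absolute depth is unknown.

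Markers placed the cells among basal keratinocytes in all 4 libraries. All 6 basal keratinocyte markers were tested, with Krt5 between 1473 and 8156 FPKM, and the list summed to 3650 and 3010 FPKM in 10p-HFSCs and to 12600 and 7940 FPKM in 48p-HFSCs, with Itga6 and Itgb4 called higher. Of 6 hair follicle stem cell markers, Krt15 and Sox9 passed the filter, while Cd34 reached at most 0.234 FPKM and Lhx2 at most 0.0241 FPKM. Sox9 was called lower, at 45.6 and 44.2 FPKM in 10p-HFSCs against 20.2 and 8.31 FPKM in 48p-HFSCs (log2 difference -1.71, limma adjusted p = 0.0389). Krt15 was at 136.1 and 82.6 FPKM against 424.8 and 18.8 FPKM and was not called. Of 6 fibroblast markers only Col1a2 passed the filter, at 67.6 and 59.3 FPKM in 10p-HFSCs and listed at 0 in 48p-HFSCs. The melanocyte genes Dct and Sox10 were listed at 0 in every library, although Tyr stood at 1.33 and 9.48 FPKM in 48p-HFSCs. The leukocyte genes Cd3e and Tyrobp were at 0 and Ptprc reached at most 0.0711 FPKM, whereas Cd68 and Lyz2 of the same list were called higher in 48p-HFSCs. Of 4 endothelial genes only Pecam1 passed the filter, at most at 2.38 FPKM. The part of these shifts in the results on the EGF family was not tested. In bulk RNA, fewer cells that express a gene and less RNA of it in each cell cannot be told apart.

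Of the ligands, Ereg and Btc were called lower in 48p-HFSCs, Ereg with the larger difference, while Areg, Hbegf and Tgfa did not pass the test and no receptor was called changed. These 2 calls among the 9 members that passed the filter, with 0 called higher, are a share near the 19.9% of all genes called, and the call of Btc was lost under several alternatives. The median difference of the 9 members was -0.62, beside -0.03 over all genes tested. For 6 of the 9 the groups did not overlap, close to the 65.9% of all genes. All 5 tested ligands had a lower mean in 48p-HFSCs, Errfi1 had a higher one, and the receptors went in different directions.

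**Figure D1:**
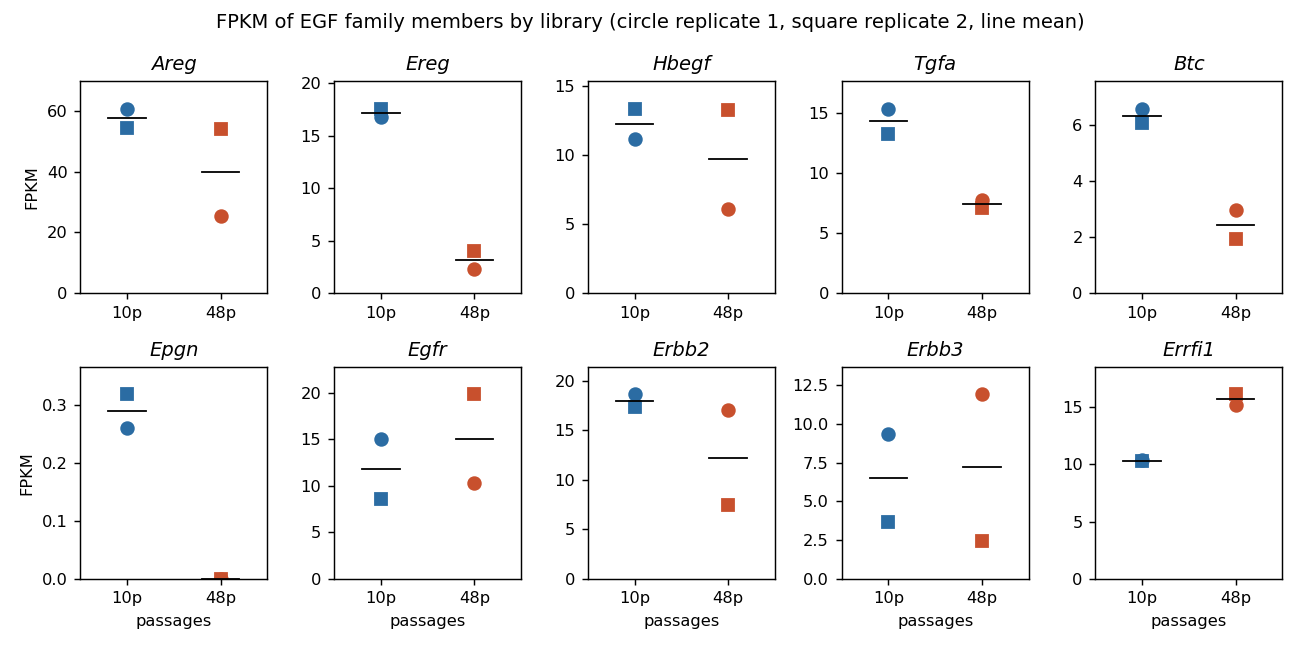
FPKM (linear axis, one scale per gene) of the 10 members in 2 libraries of 10p-HFSCs (blue) and 2 of 48p-HFSCs (orange), with circles for replicate 1, squares for replicate 2 and lines for the group means. Ereg, Tgfa, Btc and Epgn lie lower in both 48p-HFSC libraries, as do Areg, narrowly in replicate 2, and Erbb2, narrowly in replicate 1. Egfr and Erbb3 differ as much between replicates as between groups.

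Ereg, on chromosome 5 from 91074622 to 91093646 of mm10, encodes epiregulin, a ligand that activates EGFR and ERBB4. The 10p-HFSC libraries gave 16.7 and 17.55 FPKM (replicates 1 and 2, the order used throughout) and the 48p-HFSC libraries 2.29 and 4.05 FPKM. Both 48p-HFSC libraries thus lay far below both 10p-HFSC libraries. The mean was 17.1 ± 0.568 FPKM (SD, n = 2) before and 3.17 ± 1.24 FPKM (SD, n = 2) after long-term culture, a 5.39-fold ratio, and the log2 difference was -2.15 (standard error 0.32, 95% interval -2.93 to -1.38, limma adjusted p = 0.0079). Within its library Ereg ranked above 69.4% and 70.3% of all genes with a value above 0 in 10p-HFSCs, and above 34.7% and 41.1% in 48p-HFSCs. With a library left out in turn the difference stayed between -2.46 and -1.85. Without replicate 1 of 10p-HFSCs the call was lost (limma adjusted p = 0.172), and without replicate 2 it was also lost (0.169), settings in which 175 and 182 genes were called in all, whereas the limma adjusted p over all alternatives ran from 9.2e-05 to 0.172.

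Btc, on chromosome 5 from 91357261 to 91402994, encodes betacellulin, which binds both EGFR and ERBB4. It was at 6.57 and 6.05 FPKM in 10p-HFSCs and at 2.96 and 1.92 FPKM in 48p-HFSCs, without overlap. The mean of 6.31 ± 0.363 (SD, n = 2) fell to 2.44 ± 0.733 (SD, n = 2), with a log2 difference of -1.10 (standard error 0.29, 95% interval -1.81 to -0.40, limma adjusted p = 0.046). This call was close to the limit. By its limma adjusted p it was lost with a pseudocount of 0.1 (0.061, difference -1.37), without the filter (0.106, difference -1.10) and under TPM (0.171, difference -1.59), so the difference was no smaller in these settings. It was also lost without replicate 1 of 10p-HFSCs (0.372), replicate 2 of 10p-HFSCs (0.298) or replicate 2 of 48p-HFSCs (0.077), in a range of 0.0105 to 0.372 over the alternatives. Once differences were adjusted for the length and GC content of transcripts it passed the test (limma adjusted p = 0.0404) but, at -0.90, was under the fold limit.

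Tgfa, on chromosome 6 from 86195223 to 86275719, encodes TGF-alpha, a ligand of EGFR long known from the wavy hair of mice that lack it. Its values of 15.3 and 13.2 FPKM in 10p-HFSCs stood against 7.76 and 7.05 FPKM in 48p-HFSCs. The groups did not overlap and the replicates were close, yet the difference of -0.86 (standard error 0.26, 95% interval -1.504 to -0.217) did not pass the test (limma adjusted p = 0.069) and was under the fold limit. The mean in 10p-HFSCs was 1.93 times that in 48p-HFSCs.

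Areg, on chromosome 5 from 91139599 to 91148432, encodes amphiregulin, a heparin-binding ligand that keratinocytes secrete in culture. It was the most abundant ligand transcript in each library, at 60.7 and 54.5 FPKM in 10p-HFSCs and at 25.3 and 54.1 FPKM in 48p-HFSCs. The 48p-HFSC replicates differed 2.14-fold, and replicate 2 lay just below the 10p-HFSC libraries. The log2 difference was -0.62 (standard error 0.39, 95% interval -1.59 to 0.35, limma adjusted p = 0.298). Areg had the shortest transcript of the members, 1215 bases against 10208 for Egfr. After correction for length and GC content the difference of Areg was -1.05 (limma adjusted p = 0.0532), and without replicate 2 of 48p-HFSCs it was -1.15 and called lower (limma adjusted p = 0.0408), in a range of 0.0213 to 0.735 over the alternatives. Without replicate 1 of 48p-HFSCs the difference was -0.09.

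Hbegf, on chromosome 18 from 36504927 to 36515805, encodes the heparin-binding ligand HB-EGF, known to act in keratinocyte migration during wound closure. It had 11.1 and 13.3 FPKM in 10p-HFSCs and 6.11 and 13.2 FPKM in 48p-HFSCs, so that the groups overlapped. Its difference of -0.39 (standard error 0.39, 95% interval -1.36 to 0.57, limma adjusted p = 0.502) turned to 0.11 without replicate 1 of 48p-HFSCs.

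Epgn, on chromosome 5 from 91027464 to 91035215, encodes epigen, a ligand of low affinity for EGFR. Low values of 0.26 and 0.318 FPKM in 10p-HFSCs stood against a listing of 0 in each 48p-HFSC library. Epgn was below the filter, and no fold change can be given. When every gene above 0 in any library was fitted, its difference of -0.37 was under the fold limit (limma adjusted p = 0.0228).

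The make-up of the ligand transcripts within a library, which no rescaling of a whole library can move, shifted away from Ereg. Ereg made up 15.1% and 16.7% of the summed FPKM of the 6 ligands in 10p-HFSCs against 5.16% and 5.04% in 48p-HFSCs. Areg made up 54.8% and 51.9% in 10p-HFSCs against 57.0% and 67.4% in 48p-HFSCs. The ratio of Areg to Ereg was 3.62 and 3.10 in 10p-HFSCs against 11.0 and 13.4 in 48p-HFSCs. The replicates of each group were much closer to each other in this ratio than the groups were. Shares and ratios can still move with the trend with transcript length given below. After the length and GC correction the differences were -1.05 for Areg and -1.96 for Ereg, closer together than the -0.62 and -2.15 without it. Tgfa made up more than Btc in all 4 libraries, but the shares of both varied between the 48p-HFSC replicates, with 6.65% for Btc and 17.5% for Tgfa in replicate 1 and 2.39% and 8.78% in replicate 2. Ereg was second to Areg in both 10p-HFSC libraries. In 48p-HFSCs it stood below Tgfa and Hbegf in both libraries, and in replicate 1 also below Btc. Tgfa and Hbegf exchanged places between replicates of each group, so their order is not resolved. The 6 ligands together summed to 110.7 and 104.9 FPKM in 10p-HFSCs, and to 44.4 and 80.3 FPKM in 48p-HFSCs.

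**Figure D2:**
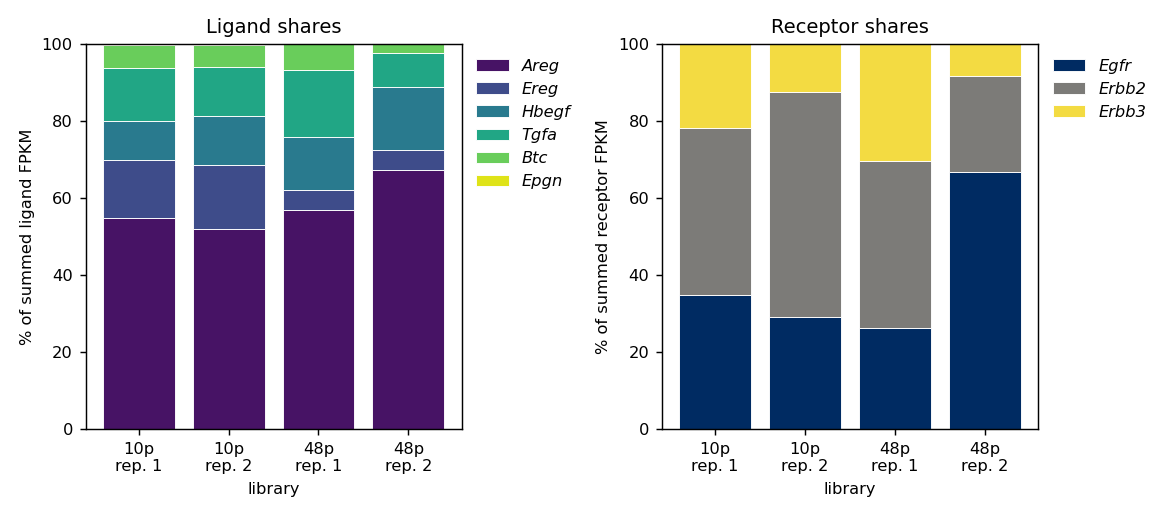
Share (%) of each ligand in the summed FPKM of the 6 ligands (left) and of each receptor in that of the 3 receptors (right), one bar per library. The Ereg share is 15.1% and 16.7% in the 10p-HFSC bars but 5.16% and 5.04% in the 48p-HFSC bars, while the receptor shares differ most between the 48p-HFSC replicates.

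The receptors gave no difference beyond the spread between replicates. Egfr, on chromosome 11 from 16752203 to 16918158, had 15.03 and 8.61 FPKM in 10p-HFSCs and 10.3 and 19.9 FPKM in 48p-HFSCs. The higher library was replicate 1 in 10p-HFSCs and replicate 2 in 48p-HFSCs, and the groups overlapped. Its difference was 0.31 (standard error 0.42, 95% interval -0.72 to 1.33, limma adjusted p = 0.626) on the scale as deposited and -0.25 under TPM, where it stood 0.31 above the median of all genes.

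Erbb2, on chromosome 11 from 98412470 to 98437716, is the partner receptor without a ligand of its own. It was at 18.7 and 17.3 FPKM in 10p-HFSCs and at 17.0 and 7.42 FPKM in 48p-HFSCs. Replicate 1 of 48p-HFSCs lay next to the 10p-HFSC libraries, and the mean was carried down by replicate 2. The difference of -0.62 (standard error 0.40, 95% interval -1.62 to 0.37, limma adjusted p = 0.306) was -0.08 without replicate 2 of 48p-HFSCs, and -1.17 and called lower without replicate 1 (limma adjusted p = 0.0299, in a range of 0.0299 to 0.815 over the alternatives).

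Erbb3, on chromosome 10 from 128567523 to 128589652, is the neuregulin receptor with the weak kinase. It was at 9.38 and 3.67 FPKM in 10p-HFSCs and at 11.9 and 2.47 FPKM in 48p-HFSCs. Replicate 1 exceeded replicate 2 by 2.56-fold in 10p-HFSCs and by 4.83-fold in 48p-HFSCs. The difference of -0.06 had the widest interval of the members, -1.77 to 1.66 (limma adjusted p = 0.961), and its sign turned under quantile normalization (0.10), after the length and GC correction (0.21) and when replicate 1 of 10p-HFSCs (0.52) or replicate 2 of 48p-HFSCs (0.89) was left out, so no direction is given for it.

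Part of the replicate spread followed transcript length in both groups. Across the 10612 tested genes with an annotated length, Spearman's rho between length and the difference of replicate 2 minus replicate 1 was -0.494 in 10p-HFSCs and -0.367 in 48p-HFSCs, a correlation over genes of the same libraries. The tested members followed this trend in part, with longer transcripts mostly lower in replicate 2, and no correlation was computed over them. Tgfa, Btc, Erbb2 and Erbb3, with transcripts of 4527, 4027, 5012 and 6016 bases, were lower in replicate 2 of both groups, whereas Ereg and Hbegf, with 4128 and 2890 bases, were higher in replicate 2 of both. The shortest, Areg, the longest, Egfr, and Errfi1, with 3043 bases, were lower in replicate 2 of 10p-HFSCs and higher in replicate 2 of 48p-HFSCs. Of the summed receptor FPKM, Egfr made up 34.9% and 29.1% in 10p-HFSCs against 26.2% and 66.8% in 48p-HFSCs, while the sum itself was 43.1 and 29.6 FPKM against 39.2 and 29.8 FPKM.

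Errfi1, on chromosome 4 from 150853919 to 150868892, was the member with the closest replicates and the only one whose 48p-HFSC libraries both lay above the 10p-HFSC libraries. Its FPKM was 10.4 and 10.3 in 10p-HFSCs against 15.2 and 16.1 in 48p-HFSCs. The mean was 1.52 times as high in 48p-HFSCs. The difference of 0.56 (standard error 0.25, 95% interval -0.06 to 1.17, limma adjusted p = 0.164) did not pass the test, and the interval reached just past the fold limit. Under TPM the difference was 0.02, which was 0.57 above the median of all genes on that scale. Its rank within the library was above 58.5% and 58.4% of genes in 10p-HFSCs, and above 68.5% and 66.4% in 48p-HFSCs. The ratio of Errfi1 to Egfr was 0.692 and 1.195 in 10p-HFSCs against 1.479 and 0.812 in 48p-HFSCs, with overlapping groups.

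**Figure D3:**
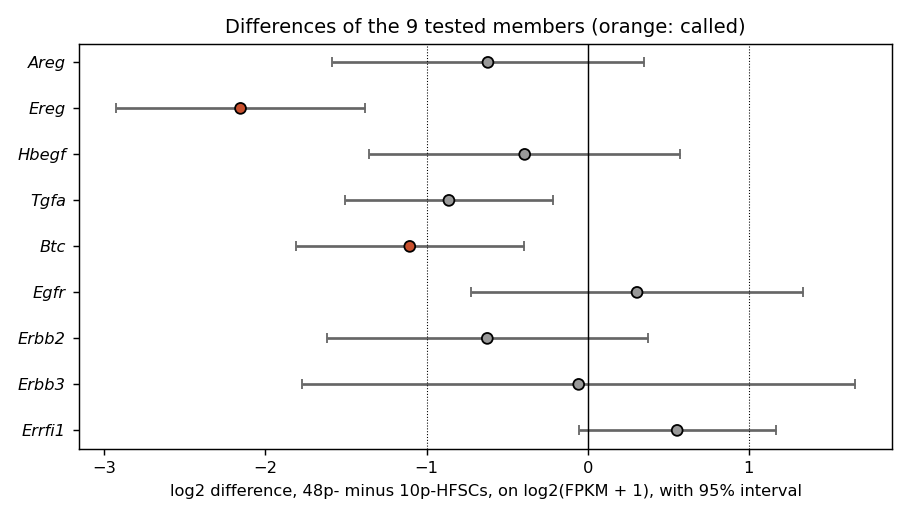
Differences in log2(FPKM + 1), 48p- minus 10p-HFSCs, of the 9 tested members with 95% intervals from limma, dotted lines marking the fold limit. Ereg at -2.15 and Btc at -1.10 were called (orange), and the interval of every receptor spans 0.

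Of the 4 ligand genes on chromosome 5, Epgn, Ereg, Areg and Btc, all lay within 375.5 kb, with no other protein-coding gene of GENCODE M21 between them. The members of this cluster were Epgn and 3 tested ligands, of which 2 were called lower, beside 9.15% of all genes called lower. So few genes are not read as a share, and the call of Btc was lost under several alternatives. Among the 5 protein-coding genes on each side, 9 had a symbol in the files and 6 were tested. The single flanking gene that was called was Cxcl3, a neutrophil-attracting chemokine, which rose from 0.42 and 0.753 FPKM to 4.55 and 11.2 FPKM (log2 difference 2.38, limma adjusted p = 0.0148). Mthfd2l, the gene next to Epgn and a mitochondrial enzyme of folate metabolism, was at 15.7 and 20.0 FPKM in 10p-HFSCs and at 5.34 and 9.63 FPKM in 48p-HFSCs, a difference of -1.19 that did not pass the test (limma adjusted p = 0.0615). Beyond Btc, Rchy1 had a difference of -0.09, Cdkl2 of -0.25 and G3bp2 of -0.72, and none of these was called. Lower values therefore did not extend to every neighbour, as Cxcl1 at 0.56 (not called) and Cxcl3 lay above 0. The 686 tested genes of chromosome 5 had a median difference of -0.33, against -0.03 for all genes, and its part in the values of these ligands was not tested.

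**Figure D4:**
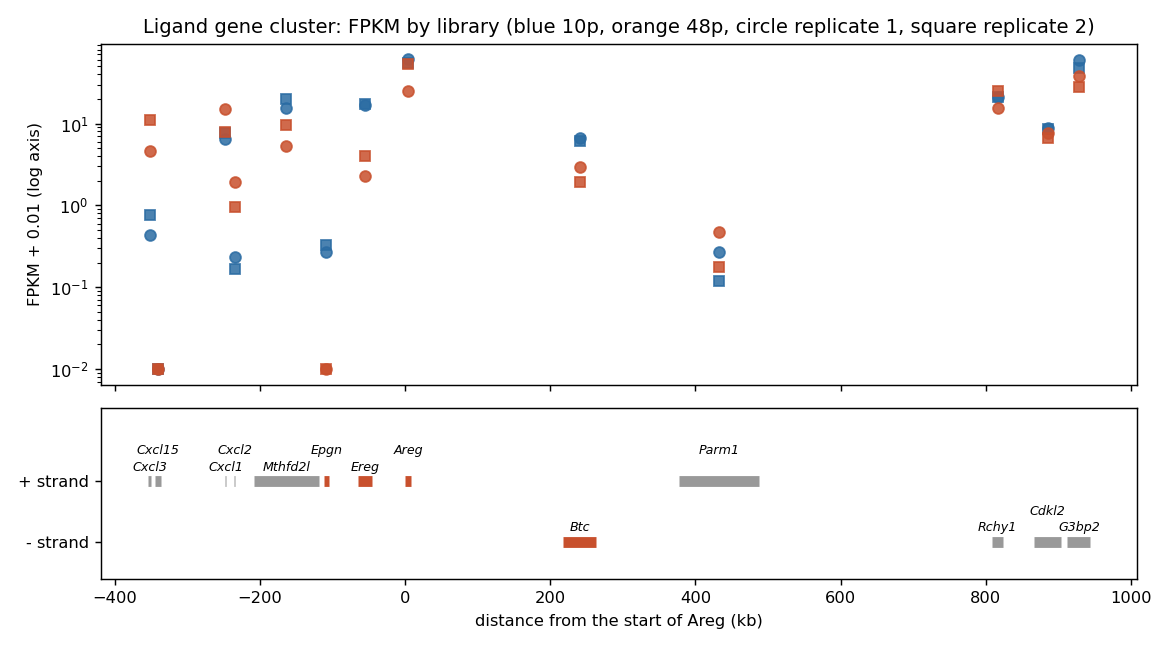
Ligand gene cluster with FPKM + 0.01 on a log axis by library (top; blue 10p-HFSCs, orange 48p-HFSCs, circle replicate 1, square replicate 2), drawn at each gene's middle, above the genes on both strands (bottom; orange ligands, grey flanking genes), against distance from the start of Areg in kb. Epgn, Ereg, Btc and, narrowly in replicate 2, Areg are lower in both 48p-HFSC libraries. So are the flanking genes Mthfd2l, Cdkl2 and G3bp2, while Cxcl1, Cxcl2 and Cxcl3 are higher in both.

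The wider pathway was read in 5 lists of 87 genes, none of which is a member. Of these, 78 passed the filter, 8 were called higher and 9 lower, or 17 in all, beside the 19.9% of all genes, and their median difference was -0.13. The share was thus near that of all genes.

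Among the 6 other EGF family ligands and receptors, 2 passed the filter and 0 were called by limma, although 1 of them, Nrg1, had an unadjusted value under 0.05 in the limma fit across all genes (0.0412). Nrg1, which encodes neuregulin 1, a ligand of ERBB3 and ERBB4, was at 9.57 and 4.99 FPKM in 10p-HFSCs and at 11.8 and 25.6 FPKM in 48p-HFSCs. Its groups did not overlap, and its difference of 1.21 (standard error 0.46) did not pass the test (limma adjusted p = 0.118). Nrg2 was at 0.558 and 0.858 FPKM against 1.84 and 1.12 FPKM (limma adjusted p = 0.204). Egf reached at most 0.544 FPKM and Nrg4 at most 1.03 FPKM, and Nrg3 and the receptor gene Erbb4 were listed at 0 in every library.

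Genes of ligand shedding and processing moved in both directions. Of 10 tested, 3 were called higher and 2 lower, beside 10.8% and 9.15% of all genes. Rhbdf2, which encodes iRhom2, a cofactor that carries ADAM17 to the cell surface, rose from 5.91 and 6.27 FPKM to 22.2 and 29.0 FPKM (log2 difference 1.90, limma adjusted p = 0.0073). Frmd8, whose product binds iRhoms and stabilizes them, fell from 27.9 and 35.6 FPKM to 15.1 and 11.7 FPKM (log2 difference -1.18, limma adjusted p = 0.0336). Adam17 itself, the main sheddase of Areg, Ereg, Hbegf and Tgfa, was not called, at 11.1 and 8.07 FPKM against 13.1 and 9.15 FPKM, and neither was Adam10, the main sheddase of betacellulin, at 40.4 and 31.2 FPKM against 35.4 and 22.0 FPKM. Of the other metalloproteases, Adam15 rose from 8.72 and 9.99 FPKM to 29.8 and 32.3 FPKM, and Adam12 fell from 3.08 and 2.00 FPKM to 0.781 and 0.294 FPKM. The rhomboid protease gene Rhbdl2 rose from 3.95 and 2.09 FPKM to 10.7 and 7.63 FPKM. Rhbdf1, which encodes iRhom1, was at 19.1 and 22.9 FPKM against 43.2 and 125.2 FPKM and was not called (limma adjusted p = 0.0587). Under TPM 0 of the 5 calls remained, with limma adjusted p from 0.0622 to 0.458.

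Of 22 tested genes that restrain, ubiquitinate or sort the receptor, 3 were called higher and 4 lower, beside 10.8% and 9.15% of all genes. The median difference of the 22 was -0.47, beside -0.03 over all genes tested. Socs5, a suppressor that promotes EGFR degradation, fell from 34.4 and 30.8 FPKM to 10.4 and 2.92 FPKM (log2 difference -2.33, limma adjusted p = 0.0287). Ptprk, a receptor phosphatase that acts on EGFR, fell from 27.2 and 18.4 FPKM to 5.26 and 5.38 FPKM, and the ubiquitin ligase gene Nedd4 fell from 227 and 162 FPKM to 88.5 and 41.8 FPKM. Cblc, a ubiquitin ligase of the CBL family found in epithelia, rose from 6.56 and 8.04 FPKM to 19.5 and 43.7 FPKM (log2 difference 1.87, limma adjusted p = 0.0292). The phosphatase gene Ptprj and Lrig2 were the other two called higher. Lrig1, which encodes a transmembrane inhibitor of ERBB receptors and marks stem cells of the upper hair follicle, fell from 23.5 and 19.6 FPKM to 8.85 and 9.87 FPKM (log2 difference -1.12, limma adjusted p = 0.0329), and it was singled out after its values were seen. Under TPM the calls of Socs5, Ptprk and Nedd4 remained and those of the other 4 genes were lost.

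Adaptors and kinases downstream of the receptor gave 1 call among 28 tested genes, beside 19.9% of all genes called. Gab2, a docking protein that recruits PI3K, rose from at most 0.0169 FPKM in 10p-HFSCs to 2.30 and 1.32 FPKM in 48p-HFSCs (log2 difference 1.45, limma adjusted p = 0.0157). The related Gab1 was at 18.8 and 15.7 FPKM against 23.4 and 19.2 FPKM and was not called. No RAF, MEK or ERK gene of the list was called.

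Transcripts known to respond to ERK gave 1 call higher and 3 lower among 16 tested genes, beside 10.8% and 9.15% of all genes. Dusp6, an ERK phosphatase, fell from 122 and 114 FPKM to 52.5 and 44.3 FPKM (log2 difference -1.27, limma adjusted p = 0.0235). Spred1, an inhibitor of RAS activation, fell from 27.3 and 24.5 FPKM to 8.27 and 6.04 FPKM, and the ETS factor gene Etv5 fell from 30.4 and 26.6 FPKM to 4.40 and 11.5 FPKM. Dusp4, a nuclear phosphatase of ERK, had a listing of 0 in each 10p-HFSC library and values of 11.96 and 26.4 FPKM in 48p-HFSCs (limma adjusted p = 0.002). Myc, at 67.5 and 69.1 FPKM against 68.0 and 86.0 FPKM, and Spry2, at 14.3 and 13.8 FPKM against 19.5 and 17.3 FPKM, were not called. Etv4 went the other way from Etv5, at 15.3 and 19.2 FPKM against 33.3 and 71.3 FPKM, and was not called (limma adjusted p = 0.0535). Without overlap of the groups, 5 of the 16 genes lay higher and 5 lower, beside 65.9% of all genes in either direction. These transcripts also answer to other signals, so they are not a measure of EGFR signalling. The 4 calls of this list remained under TPM, as did that of Gab2.

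**Figure D5:**
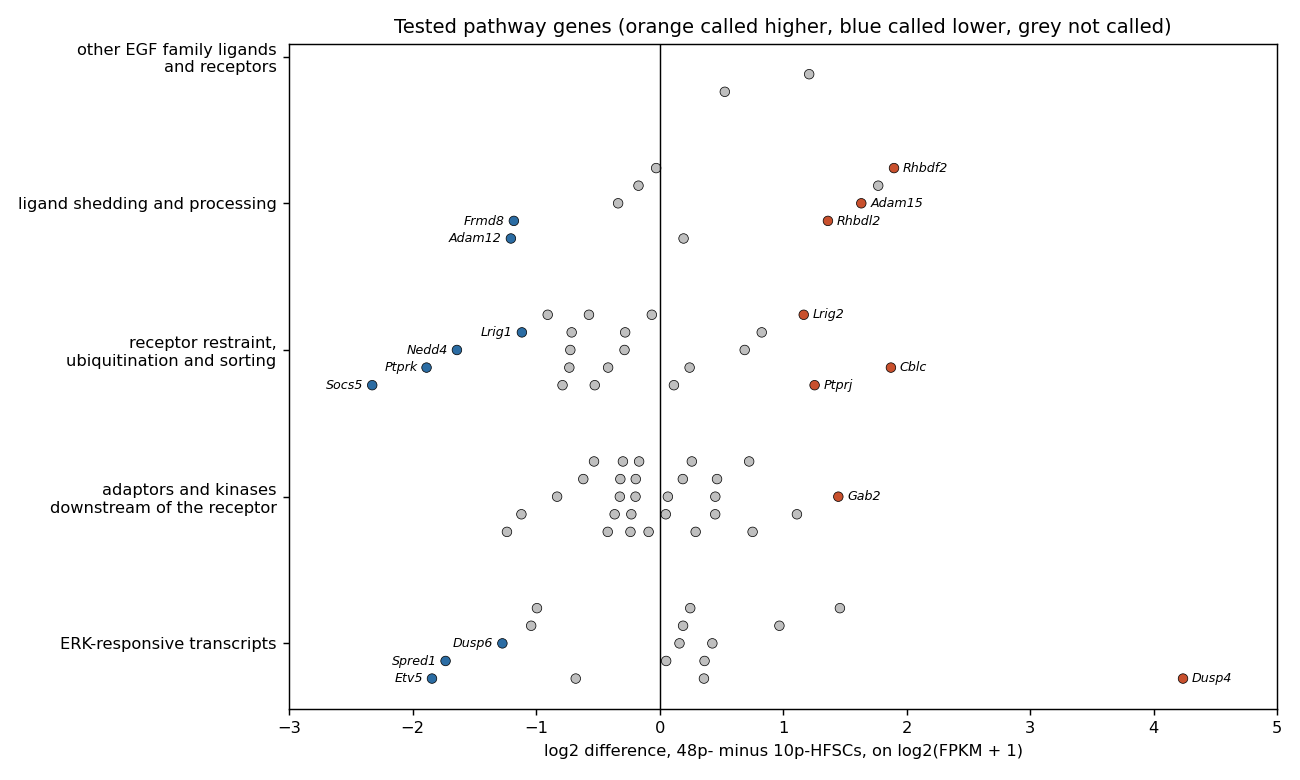
Difference in log2(FPKM + 1), 48p- minus 10p-HFSCs, of the 78 tested genes in 5 pathway lists, one point per gene, with called genes named (orange higher, blue lower) and grey points not called. Called genes lie on both sides of 0 in the lists of shedding, restraint and ERK-responsive transcripts.

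All 17 pathway calls and both member calls were lost when either 10p-HFSC library was left out. With 1 library in a group, limma takes the spread from the other group alone, and the 48p-HFSC replicates had a Pearson's r of 0.950 across genes, against 0.981 for the 10p-HFSC replicates.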

How the data were processed

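RNA-seq of 2 libraries each of 10p- and 48p-HFSCs was analysed, grouped by title. The authors prepared stranded mRNA libraries, read them from one end, mapped them to mm10 with TopHat2 2.1.1 and deposited 1 FPKM value per gene symbol and library. The submitters' processing notes name Bowtie2 2.2.8, SAMtools 0.1.18 and Cuffdiff 2.2.1, whereas the paper's methods name Cufflinks and other versions of Bowtie2 and SAMtools. The annotation, the strand setting and the handling of multiply mapped reads are not given in the sources used here. FPKM values hold no read totals, so no counting interval is given, and the study's count-based test was not run.

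The deposited values were transformed to log2(FPKM + 1), and a gene was tested if it reached 1 FPKM in 2 or more libraries. The test was that of limma 3.58.1, run in R 4.3.3 (variance trend, Benjamini-Hochberg adjustment over 11018 genes, limits of 0.05 and 2-fold). The test was also run on 10 simulated sets of 11018 genes. Each set held 200 changed genes in all, divided between log2 changes of 3 and 1.5. The test called 82% of the simulated log2 changes of 3 but only 6.4% of those of 1.5, and the false share among calls was 4.9%. The data gave 2197 calls, far more than the changed genes of such a set. The adjustment depends on how many genes change, so these shares do not carry over to the data. Moderate changes can still be missed there, at a rate that is not known. Positions and transcript lengths came from GENCODE M21 (GRCm38, the assembly of mm10), which held 95.7% of the symbols, and promoter windows from RefSeq on GRCm38.p6, a C57BL/6J genome.

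The members and gene lists were chosen with earlier results of these data known. All members were named, and from each pathway list the called genes in order of size, at most 6, with every other EGF family gene. Genes named beyond this rule, as examples that were not called or beside a count, were chosen after their values were seen. Alternatives were a pseudocount of 0.1, no filter, TPM, median-of-ratios and quantile scaling, a constant variance prior, an adjusted p under 0.1, no fold limit, a replicate block, a spline correction (4 degrees of freedom) for the length and GC content of the longest transcript with and without the block, and leaving out each library.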

Additional observations from a re-analysis of the deposited data

How the results depend on the processing

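The count of 2 changed members was 1 (Ereg alone) with a pseudocount of 0.1, without the filter and under TPM, and also 1 after the length and GC correction, and ran from 0 to 3 with a library left out. The 17 changed pathway genes were 7 without the filter and 8 under TPM, and ran from 0 to 27 with a library left out. The 3 changed genes of the ligand cluster and its flanks were 1 without the filter and ran from 0 to 4 with a library left out. With a library left out, differences in composition between groups ran from 3.62 to 14.0 percentage points for Areg, from -11.6 to -10.0 for Ereg and from -5.77 to 34.8 for Egfr among receptors, from 7.67 to 10.0 for the ratio of Areg to Ereg and from -0.13 to 0.54 for that of Errfi1 to Egfr. The difference of Egfr turned to -0.25 under TPM and ran from -0.14 to 0.75 with a library left out, that of Erbb3 turned to 0.10 under quantile normalization and to 0.21 after the length and GC correction, also with the replicate block, and ran from -1.005 to 0.892, and that of Hbegf ran from -0.89 to 0.11. Over 99 member values under the other alternatives, 89 kept direction and side of the threshold, 5 lost and 1 gained a call and 4 reversed. The cause of these changes was not tested. Low values of the shallowest library, replicate 2 of 48p-HFSCs, are the least precise.

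The groups share replicate numbers, and the deviations from the group mean correlated across genes at 0.408 between libraries of 1 number, but nothing says that the numbers mark a shared batch. With the replicate block, 2 members, 23 pathway genes and 4 cluster genes were called, Nrg1 with a difference of 1.21 (limma adjusted p = 0.0227) among them. Together with the length and GC correction, 2 members were called, Ereg and Areg. Without either 10p-HFSC library 175 and 182 of all genes were called instead of 2197, without the filter 816 were called higher and 637 lower, and without replicate 1 of 48p-HFSCs 1936 and 1875.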
